A study of Mus musculus with 10 samples.

Results

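Brush border disaccharidases are enzymes that sit on the luminal face of enterocytes and split dietary disaccharides and starch fragments into the single sugars that are then absorbed. The 4 mouse genes *Lct*, *Sis*, *Mgam* and *Treh* were taken by name, and all 4 were found among the 35275 gene IDs of the count tables and among the 15610 genes that passed the filter on low counts. RNA-seq had been run on proximal intestine of 5 WT mice and 5 KO mice, all recorded as 8 to 10 weeks old, with 1 library per mouse and between 16729787 and 20819678 counts per library. The study describes its KO mice as carrying a deletion of *Slc39a14*, which encodes the metal transporter Zip14. The labels give the genotype as KO alone; the study's methods describe the mice of its RNA-seq as whole-body knockouts compared with WT mice of their strain, and the title of the series names a deletion in enterocytes. No treatment other than genotype is recorded, and the sex of each mouse was not used here.

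Lactase (*Lct*) splits milk sugar into glucose and galactose. Sucrase-isomaltase (*Sis*) splits sucrose and the branch points of starch fragments, and maltase-glucoamylase (*Mgam*), its close relative, releases glucose from the ends of such fragments. Trehalase (*Treh*) splits trehalose, the sugar of fungi and insects. Their glucose and galactose enter the enterocyte through the sodium-coupled transporter *Slc5a1* and leave it through *Slc2a2*. Along the small intestine of rodents lactase is a product of the proximal and middle parts and is scarce in the distal ileum, and *Gata4*, a transcription factor of the duodenum and jejunum, is likewise lacking from the distal ileum.

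In GENCODE M21 (GRCm38), *Lct* (ENSMUSG00000026354) spans chromosome 1 from 128284756 to 128328318 on the minus strand, in 17 blocks of exons. *Sis* (ENSMUSG00000027790) lies on chromosome 3 from 72888557 to 72967863, minus strand, in 48 blocks. *Mgam* (ENSMUSG00000068587) lies on chromosome 6 from 40628831 to 40769123, plus strand, in 65 blocks, and *Treh* (ENSMUSG00000032098) on chromosome 9 from 44673233 to 44686305, plus strand, in 15 blocks. Few of their reads could belong to other genes. Of the 50-base windows of their transcripts, 0% of *Lct*, 0.148% of *Sis*, 0.295% of *Mgam* and 1.45% of *Treh* also occurred in a transcript of another gene, and *Treh* shares 2 exon bases with *Phldb1* on the opposite strand.

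The 250 bases before each gene's start are shown because *Lct* changed by another amount than *Sis* and *Mgam*, and because regulators of the enterocyte that recognise short motifs moved in the same libraries. The sequences are those of RefSeq on GRCm38.p6, written 5′ to 3′ on the strand of the gene. They stand at chr1:128328319-128328568 for *Lct*, chr3:72967864-72968113 for *Sis*, chr6:40628581-40628830 for *Mgam* and chr9:44672983-44673232 for *Treh*. Capitals mark exact matches, on either strand, to GATAA (GATA factors), CAATAAA (Cdx factors) or CAAAGTCCA (Hnf4 factors).
Lct: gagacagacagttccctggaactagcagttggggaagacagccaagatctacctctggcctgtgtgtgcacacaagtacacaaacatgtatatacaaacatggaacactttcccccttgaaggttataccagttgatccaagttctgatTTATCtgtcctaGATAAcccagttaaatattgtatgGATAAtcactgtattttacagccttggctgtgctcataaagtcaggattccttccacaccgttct
Sis: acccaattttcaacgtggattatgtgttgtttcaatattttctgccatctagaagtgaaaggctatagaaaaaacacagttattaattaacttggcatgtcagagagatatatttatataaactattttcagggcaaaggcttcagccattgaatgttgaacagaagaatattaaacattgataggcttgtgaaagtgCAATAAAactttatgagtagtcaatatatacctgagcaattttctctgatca
Mgam: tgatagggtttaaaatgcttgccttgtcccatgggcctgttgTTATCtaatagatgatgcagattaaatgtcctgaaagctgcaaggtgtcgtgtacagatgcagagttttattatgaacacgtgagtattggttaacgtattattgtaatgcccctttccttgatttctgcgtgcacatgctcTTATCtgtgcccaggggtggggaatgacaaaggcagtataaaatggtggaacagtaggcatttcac
Treh: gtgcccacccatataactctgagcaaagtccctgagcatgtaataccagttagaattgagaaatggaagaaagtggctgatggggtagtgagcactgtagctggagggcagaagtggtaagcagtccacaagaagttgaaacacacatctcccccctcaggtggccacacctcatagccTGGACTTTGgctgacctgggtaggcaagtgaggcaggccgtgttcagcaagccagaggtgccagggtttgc
The *Lct* window held GATAA 3 times, at bases -101, -89 and -65, and the *Mgam* window held it at -208 and -66 (first base on the gene's strand, counted back from -1 next to the start). The *Sis* window held CAATAAA at -52, and the *Treh* window held CAAAGTCCA at -71. None of the matches overlapped another. Of 32851 mouse promoters read over the same length, 22.6% held GATAA, 4.2% CAATAAA and 0.384% CAAAGTCCA. The marked matches describe letters and no binding was measured. Other spellings were not searched. The letters gatag, which differ from GATAA in the last base, stand unmarked in the *Sis* and *Mgam* windows. A window without a match therefore may still hold a site for the same factors.

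The targeted gene was checked first. *Slc39a14* had 260 ± 62.5 CPM in WT and 102 ± 32.8 CPM in KO libraries (SD, n = 5 each), where CPM is a gene's counts relative to the size of its library, scaled by the trimmed mean of M-values (TMM), and its log2 fold change was -1.35 ± 0.22 (SE; edgeR adjusted p = 0.0018). It had 190 to 356 CPM in WT and 78.4 to 160 CPM in KO libraries, so transcript remained in every KO library. The study puts the highest expression of *Slc39a14* in the proximal intestine, with a decline farther along the gut. Genes of position along the gut also separated the groups, although every library is labelled proximal. *Fabp6*, which binds bile acids in ileal enterocytes, had 0.0637 to 1.73 CPM in WT and 2303 to 9044 CPM in KO libraries. *Gip*, a hormone of the proximal intestine, had 81.9 to 115 CPM in WT and 0.838 to 19.97 CPM in KO libraries. Over the whole lists, 5 of 6 ileal genes rose (16.0% of all tested genes did), with summed levels of 572 to 1335 CPM in WT and 3901 to 11019 CPM in KO libraries, and 4 of the 6 tested proximal genes fell (13.9% of all tested genes did), with sums over all 7 listed of 4851 to 11903 CPM in WT and 91.9 to 657 CPM in KO libraries. Genotype and position of the section cannot be told apart in these libraries, for *Slc39a14* as for the other genes. KO replicate 2 stood apart in colon genes, with a summed level of 1296 CPM beside 17.2 to 54.6 CPM in the other 9 libraries, most of it *Car1* at 1170 CPM, a gene chosen after its values were seen. Without that library the edgeR log2 fold changes were -4.33 for *Lct* (adjusted p = 0.0968), -1.93 for *Sis* (0.0055), -1.44 for *Mgam* (0.0088) and -4.15 for *Treh* (0.0020).

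Every disaccharidase transcript was lower in every KO library than in any WT library: the mean over WT libraries was 17.9 times that over KO libraries for *Lct*, 11.6 times for *Treh*, 3.64 times for *Sis* and 2.77 times for *Mgam*. Together they took 0.980% to 1.304% of all counts in WT libraries and 0.179% to 0.474% in KO libraries. Of the 4 genes, 3 (*Sis*, *Mgam* and *Treh*) fell in the edgeR quasi-likelihood test, against 13.9% of all tested genes called lower, and *Lct* did not pass it. The groups did not overlap for 4 of the 4, against 10.8% of all tested genes that were lower without overlap. In bulk tissue, fewer enterocytes and less RNA per enterocyte cannot be told apart.

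**Figure D1:**
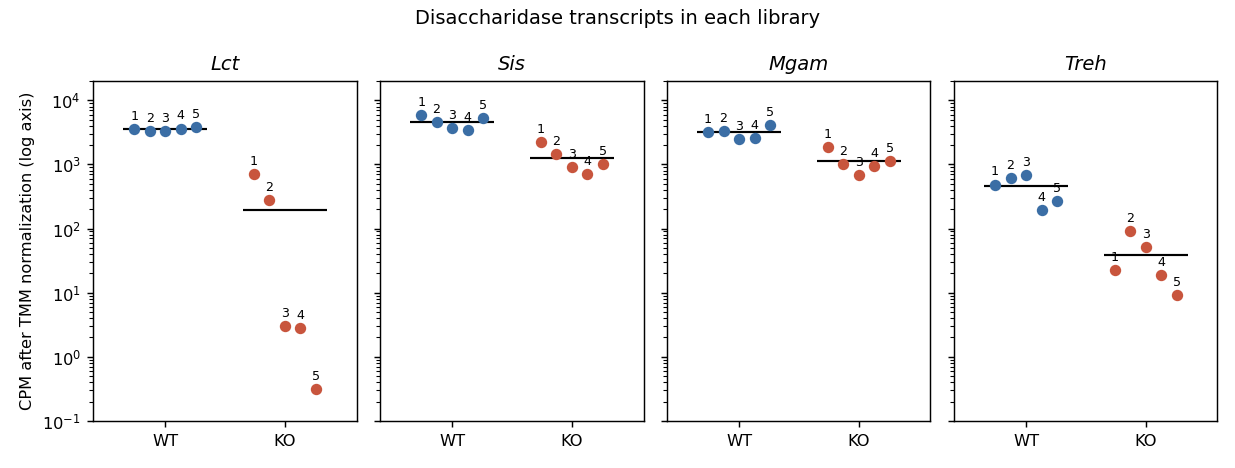
CPM after TMM normalization (log axis) of each gene in each of the 10 libraries; points are mice, numbers are replicate numbers and lines are group means. The 5 KO points of every gene lie below the 5 WT points, and those of *Lct* run from 0.314 to 701 CPM.

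Lactase transcripts had the narrowest spread of the 4 genes in WT libraries and the widest in KO libraries. *Lct* had 3528, 3358, 3361, 3635 and 3777 CPM in WT replicates 1 to 5, and 701, 280, 3.07, 2.81 and 0.314 CPM in KO replicates 1 to 5. The WT values lay within 1.12-fold of each other, while the highest KO library exceeded the lowest 2230-fold, and the last 3 KO values rest on 57, 59 and 6 counts. The SD of the log2 CPM was 0.073 in WT and 4.63 in KO libraries (n = 5 each). In rank by mean CPM among all 35275 gene IDs, *Lct* went from 20 in WT to 810 in KO libraries. Its log2 fold change in edgeR, which follows the group means, was -4.16 ± 1.55 (SE), the 31st lowest of 15610, with an adjusted p of 0.063. The mean log2 CPM differed by -7.87 between the groups, with an exact permutation p of 0.00794 (two-sided, n = 5 each), the smallest that 252 splits allow.

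The call on *Lct* depended on the method. DESeq2 gave a log2 fold change of -4.17 ± 1.41 (SE) and an adjusted p of 0.0147, and called 4 of the 4 genes lower, against 14.5% of the 18456 genes it tested. Scaled to 10 genes common to the epithelium instead of TMM, the edgeR value was -4.57 (adjusted p = 0.0293), on a scale where the median of all genes moved to -0.34 and 37.8% of all tested genes were called lower. Without KO replicate 1, the library with the most *Lct*, the edgeR value was -5.63 (adjusted p = 0.0266). With the replicate number as a block it was -8.38 ± 2.32 (SE; edgeR adjusted p = 0.0384), although replicate numbers are not shown to pair the mice.

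Sucrase-isomaltase had the highest mean CPM of the 4 genes in both groups, although *Lct* exceeded it in WT replicate 4 and *Mgam* in KO replicates 4 and 5. *Sis* had 5837, 4645, 3708, 3479 and 5271 CPM in WT replicates 1 to 5 and 2225, 1438, 907, 709 and 1014 CPM in KO replicates 1 to 5. The lowest WT library stood 1.56-fold above the highest KO library. Its log2 fold change was -1.87 ± 0.31 (SE; edgeR adjusted p = 0.0019), and its rank by mean CPM went from 13 to 69.

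Maltase-glucoamylase had the smallest fold change of the 4 genes. *Mgam* had 3228, 3357, 2463, 2594 and 4140 CPM in WT replicates 1 to 5 and 1887, 1025, 690, 950 and 1140 CPM in KO replicates 1 to 5. The gap between the groups was the narrowest of the 4 genes, with the lowest WT library 1.305-fold above the highest KO library. Its log2 fold change was -1.47 ± 0.26 (SE; edgeR adjusted p = 0.0028), and it ranked 24 in WT and 80 in KO libraries.

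Trehalase varied within both groups. *Treh* had 486, 623, 691, 195 and 270 CPM in WT replicates 1 to 5 and 22.8, 93.2, 51.7, 18.7 and 9.27 CPM in KO replicates 1 to 5. WT replicates 4 and 5 were the low ones, and among KO libraries replicates 2 and 3 were high, where *Lct* had been highest in replicates 1 and 2. Its log2 fold change was -3.53 ± 0.62 (SE; edgeR adjusted p = 0.0027), and its rank by mean CPM went from 302 to 4859. The exact permutation p of *Sis*, *Mgam* and *Treh* was 0.00794 each (two-sided, n = 5 each).

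Smooth muscle genes moved with the same groups: 9 of 10 rose, against 16.0% of all tested genes. Their summed levels were 1626 to 2670 CPM in WT and 3594 to 10580 CPM in KO libraries. Their mean log2 CPM did not overlap between the groups (6.69 to 7.46 in WT and 8.06 to 9.56 in KO libraries), so that a fit with it as a covariate cannot separate muscle content from genotype. That edgeR fit called no disaccharidase and 0.0448% of all tested genes lower. Genes of the epithelium moved both ways. Of 10 mature enterocyte genes 7 fell, against the 13.9% of all tested genes, with a median log2 fold change of -1.39. The list had summed levels of 24851 to 36801 CPM in WT and 10652 to 22582 CPM in KO libraries. It shares *Apoa4* and *Fabp1* with the list of proximal genes, so the counts of those lists are not independent. Among 6 goblet genes, 4 rose, against 16.0% of all tested genes. Of 10 genes common to the epithelium, 7 rose, against 16.0% of all tested genes called higher, none was called lower (2 were without KO replicate 1), and their summed levels were 11034 to 13152 CPM in WT and 13580 to 18956 CPM in KO libraries. On the scale set by those genes, the log2 fold changes of *Sis*, *Mgam* and *Treh* were -2.25, -1.85 and -3.90. Muscle content and genotype cannot be told apart in these libraries, and the part of enterocyte content in the differences was not tested.

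Set per kilobase of exon, which allows levels of different genes to be compared, the order in WT libraries was *Sis* at 615 ± 135, *Lct* at 551 ± 28.2, *Mgam* at 363 ± 77.3 and *Treh* at 221 ± 105 CPM per kb (SD, n = 5). *Sis* and *Lct* were neighbours within their spread and changed places between WT libraries, and *Treh* exceeded *Mgam* in WT replicate 3. In KO libraries the order was *Sis* at 169 ± 80.7, *Mgam* at 131 ± 51.7, *Lct* at 30.8 ± 47.8 and *Treh* at 19.1 ± 16.66 CPM per kb. *Lct* was the lowest of the 4 in KO replicates 2 to 5 and stood above *Treh* in KO replicate 1, and *Mgam* exceeded *Sis* in KO replicate 4. Of the summed CPM per kb, *Lct* made up 28.4% to 39.8% in WT and 0.0181% to 17.2% in KO libraries, while *Mgam* made up 17.2% to 25.0% and 29.5% to 51.1%.

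**Figure D2:**
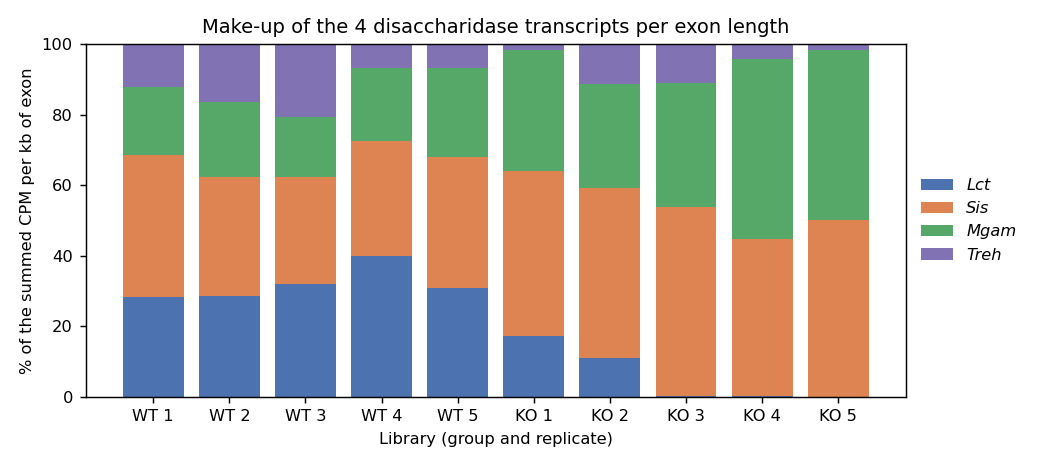
Share of each gene in the summed CPM per kb of exon (0 to 100%) for each library; each bar is 1 mouse. The *Lct* share is 28.4% or more in every WT library and 17.2% or less in every KO library.

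Whether the genes moved unequally was tested on the log2 ratio of each pair within a library, which needs no scaling between libraries, with an exact permutation test (two-sided, n = 5 each) over 6 pairs. The ratio of *Lct* to *Sis* had a mean log2 of -0.35 in WT and -6.27 in KO libraries, a difference of -5.92 (exact p = 0.00794, adjusted p = 0.0238). The ratio of *Lct* to *Mgam* differed by -6.35 (exact p = 0.00794, adjusted p = 0.0238). *Lct* therefore changed more than either α-glucosidase. Leaving out any 1 WT library raised the adjusted exact p of these pairs to between 0.0667 and 0.124, with differences of -6.43 to -5.81.

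The other pairs did not pass after adjustment. *Sis* to *Mgam* differed by -0.43 (exact p = 0.0556, adjusted p = 0.0667), *Sis* to *Treh* by 1.86 (exact p = 0.0476, adjusted p = 0.0667), *Treh* to *Mgam* by -2.30 (exact p = 0.0397, adjusted p = 0.0667) and *Lct* to *Treh* by -4.05 (exact p = 0.0952, adjusted p = 0.0952). *Lct* to *Treh* passed without KO replicate 1 (-5.52, adjusted exact p = 0.0159), and the others without KO replicate 2 or 3.

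Within the groups, *Sis* and *Mgam* varied together most closely. Their deviations from the group means of log2 CPM had a Pearson r of 0.80 (exact permutation p = 0.0231) and a Spearman rho of 0.71 (exact permutation p = 0.0402) over 10 libraries, and r was 0.69 without the 2 libraries farthest from the median. After adjustment over 6 pairs of genes the p-values were 0.138 and 0.241. *Lct* and *Sis* had an r of 0.75 and a rho of 0.65 (exact permutation p = 0.0844 and 0.102). *Treh* had an r between -0.30 and 0.46 with the others, and none of these passed. The points share depth and tissue content of their libraries.

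The genes whose deviations were most like those of each disaccharidase were taken as the 3 highest Pearson r among 9756 genes with at least 10 CPM, over the same 10 libraries, as a description of likeness only. For *Lct* they were *Fbn1* (r = 0.96), *Slc23a1* (0.96) and *Cyp2b10* (0.96). *Slc23a1*, an intestinal vitamin C transporter, had 13.4, 7.44, 0.754, 1.48 and 0.262 CPM in KO replicates 1 to 5, high in the same 2 libraries as *Lct*. For *Sis* they were *Sh3bgrl* (0.98), *Thrb* (0.95) and *Slc35a5* (0.95), for *Mgam* *March6* (0.95), *Sept9* (0.94) and *Aspa* (0.92), and for *Treh* *Depdc5* (0.95), *Herc3* (0.94) and *Rdh16* (0.94).

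The genes that take up and use the released sugars were also lower. All 11 genes of the list of hexose absorption and metabolism fell, beside 13.9% of all tested genes, with a median log2 fold change of -1.97 beside 0.03 over all tested genes. The groups did not overlap for 10 of them, beside 10.8% of all tested genes. The number called lower was 9 without WT replicate 1, 2 or 3 or KO replicate 2, and 0 with the smooth muscle covariate. *Slc5a1*, the glucose and galactose carrier of the brush border, fell by 1.77 ± 0.21 on the log2 scale (SE; edgeR adjusted p = 0.00043), from 3485 ± 558 CPM in WT to 1019 ± 276 CPM in KO libraries (SD, n = 5 each). *Slc2a2*, the exit carrier for hexoses, had 458 ± 143 and 15.5 ± 16.73 CPM, and its log2 fold change of -4.89 ± 0.86 was the largest of the list (adjusted p = 0.0026). Among the genes of fructose breakdown, *Tkfc* and *Khk* had log2 fold changes of -1.57 and -1.58.

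Galactose, the second product of lactase, is used through the Leloir pathway. Of its 6 genes 3 fell and 1 rose, beside 13.9% and 16.0% of all tested genes, with a median log2 fold change of -0.45. The call of the 1 that rose was lost in 6 of the 19 alternatives, among them without WT replicate 4, WT replicate 5 or KO replicate 3. *Galm*, which prepares galactose for phosphorylation, had a log2 fold change of -1.23 ± 0.14 (SE; edgeR adjusted p = 0.00038), *Pgm2* of -0.84 and the galactokinase *Galk1* of -0.75.

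Of 7 listed relatives of the disaccharidases outside the brush border, glycosidases and lactase-like proteins, 5 were tested and 2 fell (13.9% of all tested genes did) with a median log2 fold change of -0.42, the α-glucosidases *Ganab* of the endoplasmic reticulum (log2 fold change -0.47) and *Ganc* (-0.50), while the lysosomal *Gaa* had 0.02 and *AI464131* had -0.42. *Klb* had the largest value of the list, 0.72 ± 0.43 (SE; edgeR adjusted p = 0.215), and was not called. *Lctl* and *Kl*, related in sequence to lactase, did not pass the filter. Of the 7 amylases, which release the starch fragments in the lumen, 1 was tested: *Amy1* rose by 2.25 on the log2 scale (edgeR adjusted p = 0.0391), from 0.382 to 3.13 CPM in WT to 1.46 to 16.4 CPM in KO libraries, with overlap between the groups.

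Other enzymes anchored in the same membrane did not move one way. Of 15 brush border peptidases and phosphatases 13 were tested, of which 6 fell and 3 rose, beside 13.9% and 16.0% of all tested genes, with a median log2 fold change of -0.53. *Anpep*, the most abundant, had 6844 ± 333 CPM in WT and 6337 ± 1891 CPM in KO libraries (SD, n = 5 each) and was not called (log2 fold change -0.11, edgeR adjusted p = 0.711). *Ace* fell by 2.85 on the log2 scale. *Naaladl1* rose by 1.94 on the log2 scale (adjusted p = 0.0055). *Mep1a*, a subunit of the protease meprin named for its direction against the list, rose from 195 ± 79.7 to 1172 ± 186 CPM, a log2 fold change of 2.59 ± 0.26 (SE; adjusted p = 0.00019).

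Of 10 genes of the microvillus itself, 1 fell (*Myo7b*, -0.77) and 1 rose (*Espn*, 0.40), near the 13.9% and 16.0% of all tested genes, and the median log2 fold change was -0.23. These counts were unstable: none was called higher in 11 of the 19 alternatives, among them leaving out any 1 WT library, KO replicate 2 or KO replicate 5, and 4 were called lower without KO replicate 1 and 3 without KO replicate 5. *Vil1*, which encodes the actin bundling protein villin, had a log2 fold change of -0.49 (edgeR adjusted p = 0.105). On the epithelial scale 8 of these 10 genes were called lower, beside 37.8% of all tested genes.

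**Figure D3:**
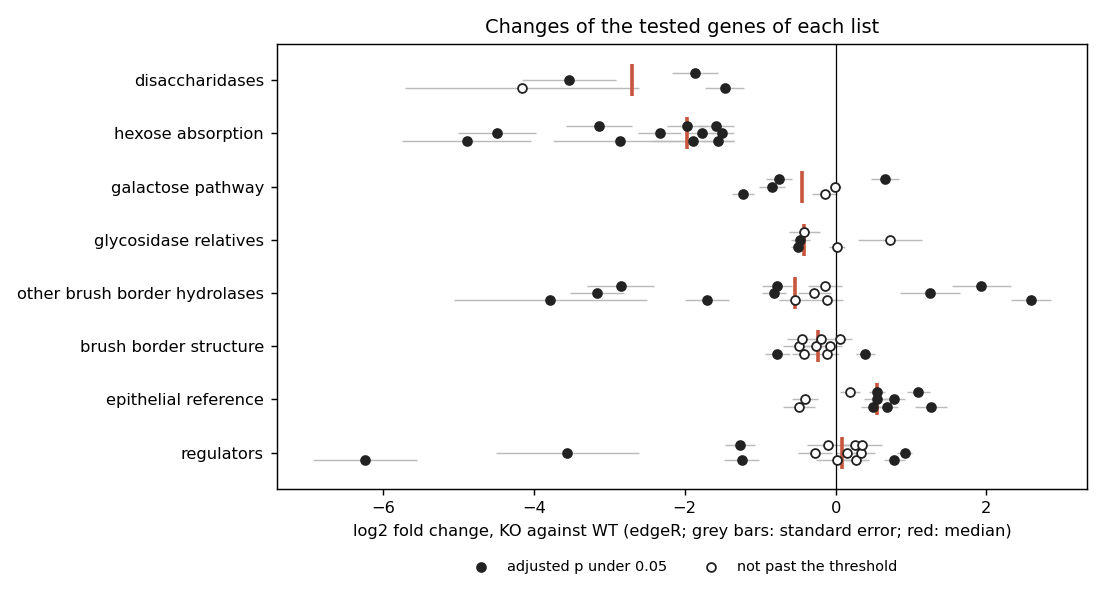
Log2 fold change of KO against WT (edgeR; grey bars, SE) for the tested genes of each list; filled points have an adjusted p under 0.05, open points do not, and red marks are medians. Disaccharidases (median -2.70) and hexose absorption genes (-1.97) lie below 0 throughout, while the other brush border hydrolases spread to both sides.

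Transcription factors with known roles at disaccharidase promoters were measured in the same libraries. Of 14 tested regulators 2 rose and 4 fell, beside 16.0% and 13.9% of all tested genes, and without KO replicate 4 the number called higher was 4. *Gata4* had 216, 201, 200, 166 and 160 CPM in WT replicates 1 to 5 and 59.3, 13.8, 5.23, 0.571 and 1.47 CPM in KO replicates 1 to 5, a log2 fold change of -3.56 ± 0.95 (SE; edgeR adjusted p = 0.0177). KO replicates 1 and 2 held the most of both *Gata4* and *Lct*. *Gata6*, *Hnf4g* and *Onecut2* also fell, with log2 fold changes of -1.27, -1.25 and -6.24. *Cdx1* and *Cdx2*, factors of intestinal identity, rose by 0.92 and 0.78 on the log2 scale, while *Hnf4a* (0.27) was not called.

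Among the KO libraries, 4 of the 7 proximal genes (*Gip*, *Gata4*, *Apoa4* and *Cybrd1*) were highest in replicates 1 and 2, the libraries with the most *Lct*, while *Slc40a1*, *Pdx1* and *Fabp1* were not. *Slc40a1* was highest in replicates 4 and 5, *Pdx1* was highest in replicates 4 and 3 at 0.571 and 0.377 CPM, and *Fabp1* had 50.7, 125, 50.9, 22.1 and 4.03 CPM in KO replicates 1 to 5. *Gip* had 19.97, 9.17, 1.35, 3.66 and 0.838 CPM and *Slc2a2* had 31.9, 35.3, 1.78, 6.42 and 1.83 CPM in KO replicates 1 to 5, in each case highest in replicates 1 and 2. Of the 6 ileal genes 3 (*Fabp6*, *Slc51a* and *Slc51b*) were lowest in replicates 1 and 2, and *Slc10a2*, *Fgf15* and *Cubn* were not. *Fabp6* had 3290, 2303, 5184, 9044 and 7710 CPM in KO replicates 1 to 5, and *Fgf15* had 47.9, 29.1, 66.7, 122 and 14.4 CPM. The smooth muscle sums were likewise lowest in those libraries, at 4130 and 3594 CPM against 4705 to 10580 CPM in the others. The part of section position and of muscle content in the *Lct* values was not tested.

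**Figure D4:**
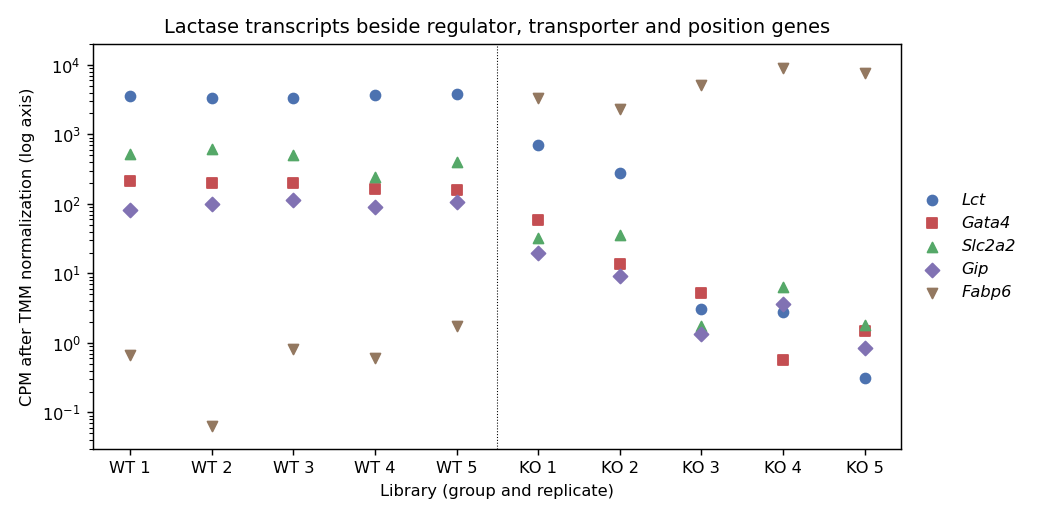
CPM after TMM normalization (log axis) of *Lct*, *Gata4*, *Slc2a2*, *Gip* and *Fabp6* in each of the 10 libraries, WT to the left and KO to the right of the dotted line. *Lct* lies between 3358 and 3777 CPM in WT; in KO *Lct*, *Gata4*, *Slc2a2* and *Gip* are highest in replicates 1 and 2.

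**Figure D5:**
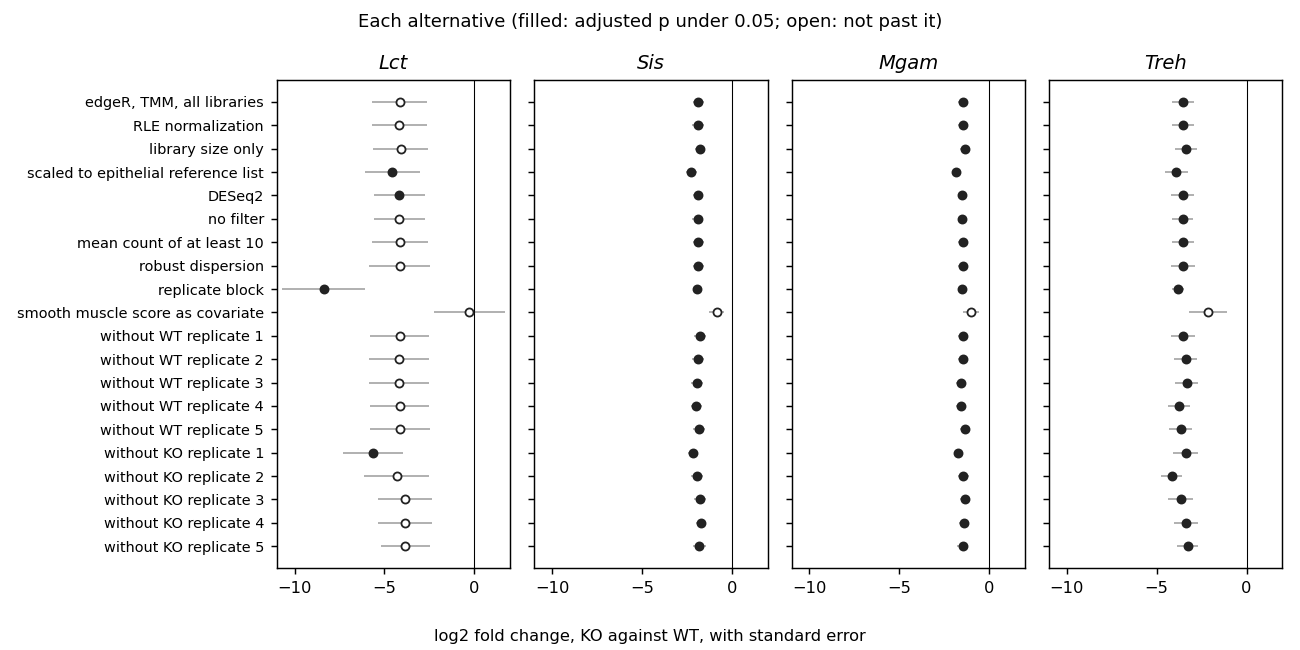
Log2 fold change of KO against WT with its SE for each gene under edgeR with TMM and each of 19 alternatives; filled points have an adjusted p under 0.05. All estimates lie below 0, that of *Lct* under the smooth muscle covariate (-0.28) within its SE of 0, and *Lct* passes the threshold in 4 of the 19 alternatives while *Sis*, *Mgam* and *Treh* pass it in 18.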

How the data were processed

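Total RNA of proximal intestine was made into mRNA libraries by the submitters. Their processing notes name FastQC 0.11.9, Trimmomatic, HISAT2 2.0.4, SAMtools 1.3.1 and DESeq2 1.14.1 with GRCm38/mm10; the counter, annotation and strand setting are not given in the sources that were used here. The deposited values are raw counts per gene for each mouse. Symbols came from GENCODE M21 for 34490 of 35275 IDs. The counts were fitted in R 4.3.3 with edgeR 4.0.16 (filterByExpr, minimum count 10 and total 15; TMM; quasi-likelihood test; Benjamini-Hochberg over 15610 genes; threshold 0.05), checked on simulated data. SE is the size of the log2 fold change over the root of F. Log2 CPM used a prior count of 2. Alternatives included DESeq2 1.42.0, other scalings and filters, and leaving out each library. Totals were 16729787 to 20819678 in WT and 17118742 to 19414828 in KO libraries, and replicates of a group differed by more than sampling noise. Per-kb values used merged exons. Promoters and shared windows were read from RefSeq and GENCODE transcripts.

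The 4 genes and all lists were chosen with earlier results of these data known. Beside the 4, the rule named *Slc39a14*, up to 6 of the most abundant genes of a list plus those against its direction, and the 3 genes most like each disaccharidase; *Galk1*, *Gata6*, *Onecut2*, *Myo7b*, *Espn* and *Pdx1* were named after their values were seen, and some genes that the rule picks are not reported here. Lists of crypt (2 of 9 higher), Paneth (0 of 6), leukocyte (1 of 8 lower), pancreas (0 of 2) and colon genes (1 of 1 higher) were fitted too, beside 16.0% of all tested genes higher and 13.9% lower, and no stomach or Y-linked gene passed the filter.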

Additional observations from a re-analysis of the deposited data

Results flagged for a closer look

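Among 82 genes named or listed around the disaccharidases, 12 of 164 groups of 5 libraries held a library far from the other 4 by Dixon's gap over range (above 0.71). That limit flags about 1 in 20 groups of independent, normally distributed values. Genes of the same library are not independent, so the 12 cannot be set against that rate. None of the flagged groups was of a disaccharidase. KO replicate 1 was high for 6 genes: *Slc39a14* at 160 CPM beside 78.4 to 93.6, *Gata4* at 59.3 beside 0.571 to 13.8, *Slc5a4b*, a relative of the glucose carrier, at 155 beside 3.46 to 23.99, *Xpnpep2* at 746 beside 358 to 414, *March6* at 345 beside 170 to 213, and *AI464131* at 30.3 beside 15.7 to 19.0. It is also the KO library with the most *Lct*, *Sis* and *Mgam*. KO replicate 5 was high for *Espn* (288 CPM beside 185 to 208) and KO replicate 4 low for *Pgm2* (68.4 beside 113 to 131). KO replicate 2 was high for *Car1* (1170 CPM beside 0 to 11.3), a gene of the colon. In WT libraries, replicate 5 was high for *Enpep* (1750 beside 1180 to 1300) and replicate 3 low for *Klf5* (147 beside 182 to 194), and replicate 1 was low for *Slc51b* (19.4 beside 22.9 to 23.9). The values are given without an explanation.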

How the results depend on the processing

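*Sis*, *Mgam* and *Treh* passed the threshold in 18 of 19 alternatives, all but the smooth muscle covariate (-0.84, -0.996 and -2.15), which cannot be separated from genotype. Its value for *Lct* was -0.28 (SE 1.97, adjusted p = 0.967), and in the other 18 *Lct* was at most -3.84. *Lct* passed it when scaled to the epithelial list (-4.57), in DESeq2 (-4.17), with the replicate number as a block (-8.38, adjusted p = 0.0384) and without KO replicate 1. Leaving out each library gave -5.63 to -3.84 for *Lct*, -2.18 to -1.72 for *Sis*, -1.73 to -1.34 for *Mgam* and -4.15 to -3.28 for *Treh*. The same step gave the pairs of genes -7.07 to -4.68 (*Lct* and *Sis*), -5.52 to -3.17 (*Lct* and *Treh*), -7.53 to -5.04 (*Lct* and *Mgam*), 1.51 to 2.21 (*Sis* and *Treh*), -0.53 to -0.30 (*Sis* and *Mgam*) and -2.74 to -1.87 (*Treh* and *Mgam*). Of all genes, 2492 were higher and 2169 lower; these counts were 816 and 5907 on the epithelial scale, 10 and 7 with the muscle covariate, and 1634 to 2944 and 1573 to 2563 without 1 library, lowest without WT replicate 2. On library size alone 69.2% of the calls were higher, in place of 53.5%, and on the epithelial scale 12.1%. The cause of these shifts was not tested. Replicate numbers are not shown to pair the mice: deviations of same-numbered libraries correlated at -0.17 to 0.18, and 1 of 5 WT libraries matched its own number best; under the block 1950 genes were higher and 1898 lower. A Y-linked covariate was not run, since the Y-linked genes had 3 counts in all. Counts of 57, 59 and 6 limit the *Lct* values of KO replicates 3 to 5.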
